A study of Homo sapiens and Mus musculus with 19 samples.

Results

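The chromatin-associated RNA (caRNA) of K562 cells in their baseline state was described from 3 libraries of the 19 samples in the series. The members were taken by their labels alone: K562, TET2 wild type (TET2WT), control short hairpin RNA (shControl), caRNA, replicates 1 to 3. K562 is a single human line from a chronic myeloid leukaemia in blast crisis, carries the BCR-ABL1 fusion and has erythroid and megakaryocytic features. The labels give its tissue as bone marrow, its cell type as lymphoblast and its genotype as wildtype, control. Per the study's methods the cells carried a lentiviral, non-targeting hairpin under puromycin selection, so that all 3 libraries come from transduced cells. The other groups of the series (TET2 knockout, MBD6 knockdown and mouse embryonic stem cells) were not used, and no contrast between groups was made.

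To obtain caRNA, the cell membrane is lysed, nuclei are spun through sucrose, the nuclei are opened in a urea buffer and the RNA of the chromatin pellet is purified. Such RNA is known to hold nascent transcripts still attached to RNA polymerase, with their introns, and noncoding RNAs that stay in the nucleus. Ribosomal RNA was depleted before a random-primed, stranded library was made, so RNAs with and without a poly(A) tail could enter. A level here is the CPM of a gene, its count scaled to the same total of gene counts in every library, and a density is CPM per kb of gene span, introns included, or per kb of exon. Values are mean ± s.d. over n = 3 libraries unless stated. The study calls its replicates biological, but the sources used here do not say whether the 3 came from separate cultures, so their spread may be technical. In bulk RNA fewer cells with a transcript and less of it per cell cannot be told apart.

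The libraries held 70394621, 102070223 and 98386822 counts in named genes for replicates 1, 2 and 3. These were 70.7% to 71.6% of all read records. A further 13.1% to 13.3% lay outside annotated genes, 5.05% to 5.24% were ambiguous between genes and 10.1% to 10.9% aligned to more than 1 place. Of 58721 gene lines, 26026 had a count in every library, 13781 had at least 100 in every library and 22494 were at 0 in all. With 3 counts as the limit that a count of 0 allows, a gene at 0 may lie at up to 0.0426, 0.0294 and 0.0305 CPM in replicates 1, 2 and 3. This limit covers counting error only.

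MALAT1, the lncRNA of nuclear speckles, had the highest level of the genes counted by a wide margin. Depleted ribosomal RNA, reads aligned to several places and genes inside another of the same strand could not be ranked. MALAT1 (ENSG00000251562, GRCh38 chr11:65497640-65508073, plus strand) had 16687, 16943 and 17000.3 CPM in replicates 1, 2 and 3, which was 1.67%, 1.69% and 1.70% of gene counts. The next gene, the lncRNA CCDC26, had 3929, 3970.0 and 3967 CPM, so MALAT1 stood 4.27 ± 0.0191 times above it. This gap was far larger than the spread between libraries. The 10 highest genes together held 4.20% ± 0.0363 of the counts, the 100 highest 14.4% ± 0.0789 and the 1000 highest 47.3% ± 0.207. Between 1117 and 1136 genes were needed to reach 50% of the counts of a library.

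Below MALAT1 and CCDC26 the list was made of long genes. CPED1 had 3312 ± 30.8 CPM, PRKCB, which encodes protein kinase C beta, 3214 ± 28.96, and FGF13, an intracellular fibroblast growth factor homologue, 2771 ± 34.2. NBAS, a factor of Golgi-to-ER transport, had 2592 ± 20.9 CPM, IMMP2L, an inner mitochondrial membrane peptidase, 2498 ± 37.8, and SMYD3, a lysine methyltransferase, 2363 ± 3.18. The lncRNA ENSG00000189229 on chromosome 3 had 2356 ± 27.6 and STXBP5, a syntaxin-binding protein, 2104 ± 53.9. Each of these had a coefficient of variation of a few percent or less, and neighbours in the order such as SMYD3 and ENSG00000189229 did not differ beyond their spread. Most of these genes are long with few exonic bases: the span of CPED1 is 309 kb with 7.68 kb of exon, and that of IMMP2L 899.9 kb with 3.97 kb. The 12890 genes whose exons fill less than 10% of the span held 55.7% ± 0.321 of gene counts, which is a share of counts and not a density.

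**Figure D1:**
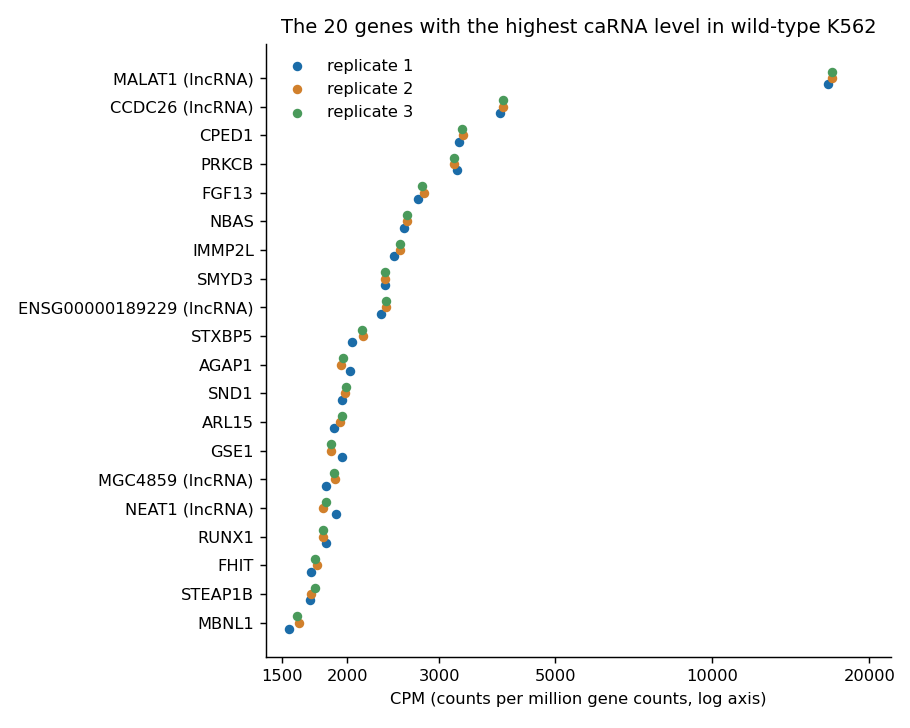
CPM of the 20 genes with the highest mean, on a log axis, 1 point per library. MALAT1 lies near 17000 CPM in all 3 libraries, CCDC26 near 4000, and the others from 3312 CPM for CPED1 down to 1586 CPM for MBNL1.

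By annotated class, protein-coding genes held 88.0% ± 0.0359 of the gene counts and lncRNA genes 10.2% ± 0.0590. MALAT1 alone made up 1.69% ± 0.0167, NEAT1, the scaffold of paraspeckles, added 1907, 1799 and 1822 CPM, and the list of 12 nuclear lncRNAs came to 2.07% ± 0.0130. All pseudogene classes together held 1.68% ± 0.00261. The classes come from a later GENCODE release than the one counted. UBBP4, classed there as a pseudogene with 846, 918 and 913 CPM, spans 917 bases in that release and 114402 in RefSeq. The pseudogene share may thus hold reads of other gene models, which was not tested. Small classes were at the bottom: small nucleolar RNAs had 0.0352%, 0.0171% and 0.0177% in replicates 1, 2 and 3 and small nuclear RNAs 0.0272%, 0.0120% and 0.0122%. In both, replicate 1 lay above the other two libraries, which were close to each other. Reads that align to several copies, or lie in 2 genes of the same strand, were set aside before counting, and their part in these low shares was not tested.

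The counts behaved as reads over the whole gene, introns included, on 1 strand. Of 472 protein-coding genes that lie wholly inside another gene of the same strand but have at least 500 exonic bases of their own, 442 (93.6%) were at 0 in every library. Among 920 that lie wholly inside genes of the opposite strand 128 (13.9%) were at 0, and among 7034 with no overlap on either strand 743 (10.6%). A gene nested in a same-strand neighbour therefore cannot be read from these tables, and the values of such members of the lists below are uncertain. Gene lengths came from a later GENCODE release than the one counted, and 85.8% of protein-coding genes had a length settled between the references used here. Ranks by density were taken over those genes.

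Per kb of span, short genes of noncoding RNA, histones and a few highly transcribed genes stood highest. Among 11135 genes with at least 100 counts in each library, MALAT1 had 1617 ± 15.97 CPM per kb and was followed by the U1 copies RNU1-27P and RNU1-28P and by RNU4-2, a U4 gene, which are described with the small RNAs below. H2AC11, a core histone gene, had 109 ± 3.35 CPM per kb, the linker histone gene H1-2 74.7 ± 1.68, and RN7SL4P, a copy of the signal recognition particle RNA, 96.0 ± 10.7. NEAT1 had 80.9 ± 2.49 and MIR223HG 92.0 ± 2.97 CPM per kb, with 474, 445 and 465 CPM in replicates 1, 2 and 3. MIR223HG (chrX:66015414-66020426, plus strand) is the host transcript of miR-223, a microRNA of the myeloid lineage, and its mature strand is shown because the host ranks seventh among these genes by density. The seed, bases 2 to 8, is in capitals (RefSeq, GRCh38.p14, chrX:66018937-66018958, plus strand).
hsa-miR-223-3p: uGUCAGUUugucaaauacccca
The tables count the host gene and not the mature microRNA. The highest protein-coding genes other than histones were the RNA helicase gene DDX5 with 59.2 ± 0.199 CPM per kb, TXNIP with 55.6 ± 1.51, MAT2A, the source of S-adenosylmethionine, with 52.8 ± 2.01, and the kinase gene PIM1 with 49.4 ± 1.248.

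Per kb of exon the order changed to genes that are almost all intron. After MALAT1 came the lncRNA ENSG00000230258 with 959.8 ± 5.01 CPM per kb of exon, of which exons fill 0.986% of a 112 kb span. ENSG00000266450, ENSG00000227681, B3GALT1-AS1, ENSG00000285822, IMMP2L, MGC4859, MIR4713HG and LINC02307 completed the 10 highest, between 581 ± 9.26 and 760.4 ± 13.3. IMMP2L is the only protein-coding gene among the 10 highest, the others being lncRNA genes, and exons fill between 0.209% and 1.43% of the span in all but MALAT1. ENSG00000266450 lies wholly and ENSG00000227681 in part inside genes of the same strand, so their values are uncertain. A single-exon gene such as MALAT1 or NEAT1 has the same value on both scales, whereas IMMP2L had 2.78 ± 0.0420 CPM per kb of span and 629 ± 9.52 per kb of exon.

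Over protein-coding genes with at least 10 counts in each library, the median density was 0.650 ± 0.00368 CPM per kb of span (14396 genes; 0.654, 0.650 and 0.646 in replicates 1, 2 and 3). It was lower in the bins of longer genes. Among the 12251 of them with a settled length, the median was 5.02 CPM per kb in 64 genes under 1 kb, 1.03 in 2920 genes of 5 to 20 kb, 0.401 in 1702 genes of 100 to 200 kb and 0.00783 in 288 genes over 500 kb. The minimum of 10 counts bears on this order: a short gene passes it only at a high density, and 64 of 264 genes under 1 kb passed, against 288 of 291 over 500 kb. Spearman's rho across these genes was -0.339 between density and span, 0.236 between CPM and span and 0.352 between CPM and exon length. Genes are not independent replicates, and span, exon share and GC content move together. Genes of 200 to 500 kb were spread wider on a log scale, with quartiles of density of 0.00634 and 0.787 CPM per kb, against 0.235 and 2.30 from 5 to 20 kb. Over 500 kb the quartiles lay closer together again, at 0.00492 and 0.0980. The minimum of 10 counts bears on this spread too, since it removes short genes of low density.

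**Figure D2:**
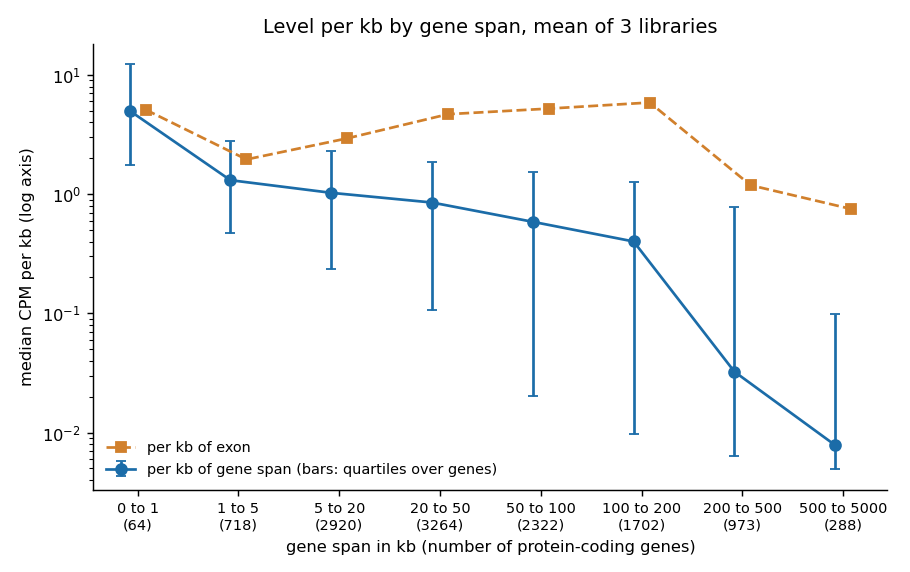
Median CPM per kb of protein-coding genes by gene span, on a log axis, mean of 3 libraries. Circles are per kb of span with bars for the quartiles over genes, squares are per kb of exon. The span values run from 5.02 to 0.00783 CPM per kb over genes that passed 10 counts in each library, and the quartile bars are widest from 50 to 500 kb.

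Of the genes called above background by the rule given below, the longest were known common fragile site genes and other giant loci. FHIT, with a span of 1504 kb, had 1704, 1749 and 1736 CPM, and WWOX, with 1113 kb, had 1170.4, 1167 and 1173. PCDH9, a protocadherin gene of 928 kb, had 1434, 1491 and 1486, RAD51B, a recombination gene of 910.4 kb, 988, 1015 and 1012, and IMMP2L was the fifth. Their densities, 1.15 ± 0.0153, 1.05 ± 0.00266, 1.58 ± 0.0338, 1.104 ± 0.0158 and 2.78 ± 0.0420 CPM per kb of span, cannot be read against other genes, since only genes above background were ranked by length. RUNX1, the haematopoietic transcription factor, had 1820.1, 1794 and 1797 CPM, but its span differs between references and no density is given for it.

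The pooled level of 415 olfactory receptor genes, which are silent in most blood cells, was taken as the background. It was 0.0638, 0.0663 and 0.0654 CPM per kb of span in replicates 1, 2 and 3. A gene was called above background where its density passed 10 times this level in each library. By that rule 6997 of 19416 protein-coding genes (36.0%), 703 of 14734 lncRNA genes (4.77%) and 8236 of 57792 genes of any class (14.3%) were called, olfactory receptor genes left out. The share was highest, 44.5%, for protein-coding genes of 20 to 50 kb, and fell to 18.6% under 1 kb and 12.4% over 500 kb.

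The background itself was uneven. Of the 415 receptor genes 210 were at 0 in every library, and the 10 highest held 91.1% of the receptor counts. Of the 8 that passed 10 times their own pooled level, 6 lay in 1 stretch of chromosome band 11q24 (chr11:124183345-124582942): OR10D3, OR8G3P, OR8G2P, OR8G1, OR8G5 and OR8A1, named here after their values were seen. OR10D3 had 36.8, 34.4 and 34.6 CPM, OR8G1 30.1, 30.4 and 30.9 and OR8A1 28.3, 29.8 and 30.6. All 11 genes of the plus strand in that stretch, pseudogenes included, had a density between 1.38 and 6.49 CPM per kb, whereas the 17 of the minus strand had between 0 and 0.0974. The stretch held 10326, 15343 and 14495 counts on the plus strand and 80, 144 and 110 on the minus strand. Without the 10 highest receptor genes the background fell and 14142 genes of any class were called, 53.6% of the protein-coding ones, a setting added after the data were seen. The calls of the gene lists below depend on this level, and so do values said to lie under the background. Most receptor genes lay under their own pooled level, with a median of 0 and a 90th percentile of 0.0251 CPM per kb. A value under it thus does not mark a gene as silent. The members of the gene lists were chosen with earlier results of these data known. Their counts and medians therefore describe the lists and do not test them against other genes.

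The markers of the line stood far above that background. GATA1, the master factor of erythroid cells (ENSG00000102145, chrX:48786540-48794311, plus strand), had 60.02, 54.0 and 52.4 CPM, or 7.14 ± 0.518 CPM per kb of span, at least 103 times the background in each library. TAL1, its partner in the erythroid complex (ENSG00000162367, chr1:47216290-47232225, minus strand), had 141, 134 and 132 CPM and 8.52 ± 0.298 CPM per kb, at least 127 times. Replicate 1 was the highest of the 3 for both genes. Their densities lay above those of 98.5% and 98.9% of protein-coding genes.

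Of 16 lineage transcription factors, 14 were above background in each library, against 36.0% of protein-coding genes. Their median density was 6.37 CPM per kb of span, against 0.127 over all protein-coding genes. MYB, the progenitor factor, was the densest with 14.8 ± 0.116 CPM per kb and 557, 566 and 561 CPM. NFE2, LDB1 and LYL1 followed with 9.90 ± 0.437, 9.74 ± 0.156 and 7.93 ± 0.149 CPM per kb, then LMO2 with 7.54 ± 0.0983 and KLF1, the activator of adult globin, with 6.88 ± 0.204. GATA2 had 5.86 ± 0.417, ZFPM1, the cofactor of GATA1, 2.94 ± 0.268, IKZF1 2.53 ± 0.0482, ETV6 1.63 ± 0.0430 and GFI1B 0.994 ± 0.0665. The length of LDB1 is not settled between the references, which also holds for TFRC, UROD, TUBB1 and CD33 below. BCL11A, the repressor of fetal globin, had 0.554, 1.04 and 0.955 CPM and FLI1, a megakaryocytic factor, 0.497, 1.40 and 0.925 CPM. BCL11A and FLI1 were under the pooled background level in every library.

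Globin transcripts were scarce on chromatin in these tables. HBG1, fetal gamma globin (ENSG00000213934, chr11:5248269-5249857, minus strand), had 492, 711 and 630 counts in replicates 1, 2 and 3, or 6.99, 6.97 and 6.40 CPM and 4.27 ± 0.209 CPM per kb of span. It was the only one of 10 globin genes above background, against 36.0% of protein-coding genes, and the median density of the list was 0.139 CPM per kb. The spans of 3 of the 10 are mostly shared with other genes, so the count and the median include uncertain values. At a multiple of 5 the count was 4 of 10, and with the background taken without the 10 highest receptor genes 5 of 10. HBD had 2.56, 2.67 and 2.88 CPM, HBA1 0.412, 0.980 and 0.427, HBA2 0.867, 0.333 and 0.600, HBQ1 0.867, 1.02 and 0.315 and HBB 0, 0.0980 and 0.102. HBG2 and HBE1 were at 0 in all 3 libraries, and both lie wholly inside gene models of the same strand, as HBG1 does in the reference used here, so that none of the 3 can be compared with the others. HBG1 and HBG2 are also near copies. Their reference coding sequences of 444 bases differ at 2 positions, and bases 197 to 257 around the first, in capitals, are shown (GENCODE v44) to make plain how little tells their reads apart.
HBG1: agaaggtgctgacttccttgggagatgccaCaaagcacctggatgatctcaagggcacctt
HBG2: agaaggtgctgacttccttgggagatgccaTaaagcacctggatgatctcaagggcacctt
HBA1 and HBA2 form another pair of this kind. What part of the low globin counts comes from reads set aside was not tested.

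Genes of haem synthesis and of the red-cell membrane were mostly well above background. Of 12 genes of haem synthesis and iron, 10 were called, against 36.0% of protein-coding genes, and the other two, ALAD and CPOX, had 9.71 and 8.73 times the background in their lowest library. The median density of the list was 2.70 CPM per kb of span. UROD, an enzyme of the middle of the pathway, had 24.7 ± 1.31 CPM per kb of span. ALAS2, the erythroid form of the first enzyme, had 25.7, 25.3 and 26.6 CPM and ALAS1, the form of all tissues, 20.1, 18.4 and 20.4, with no overlap between the libraries. Per kb of span the values were 1.18 ± 0.0305 and 1.21 ± 0.0655 CPM, within their spread, and per kb of exon 12.6 ± 0.327 and 7.74 ± 0.419, with ALAS2 the higher. The transferrin receptor gene TFRC had 599, 584 and 591 CPM and the mitochondrial iron carrier gene SLC25A37 237, 235 and 234. Of 17 red-cell membrane and receptor genes 11 were called, again against 36.0%, with a median of 1.73 CPM per kb. Without the 10 highest receptor genes in the background, 15 were. EPB41, protein 4.1, had 1075, 1073 and 1088 CPM, ANK1, ankyrin, 845, 808 and 819, and GYPC, glycophorin C, 244, 230.2 and 233. RHAG had 5.397 ± 0.0528 CPM per kb and EPOR, the erythropoietin receptor gene, 3.26 ± 0.262. SLC4A1, the anion exchanger of mature red cells, had 5.51, 5.70 and 6.41 CPM and EPB42 2.07, 1.32 and 1.40, and neither was called. XK, which lies wholly inside a gene model of the same strand, was at 0 and is uncertain.

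Markers of other blood lineages and of other tissues were near or under the background, with a few exceptions. The counts called in these lists stand against 36.0% of protein-coding genes called. Of 13 megakaryocyte genes 2 were called: ITGA2B, integrin alpha IIb, with 45.05, 38.5 and 41.5 CPM and TUBB1, the platelet tubulin, with 14.8, 12.3 and 13.0. PF4 was at 0 in every library, and VWF had 0.867, 1.18 and 0.762 CPM. Of 16 granulocyte and monocyte genes 2 were called, SPI1, the myeloid factor PU.1, with 22.3, 23.9 and 26.4 CPM and the surface receptor gene CD33 with 17.8, 16.8 and 17.0. MPO had 0.455, 0.353 and 0.0813 CPM and ELANE was at 0. The median densities of these lists were 0.00649 CPM per kb for megakaryocyte genes and 0.0168 for granulocyte and monocyte genes, both under the pooled background. The median receptor gene had a density of 0, so a median under that pooled level can still lie above most receptor genes. None of 12 T lymphocyte genes was called, and RAG1 came nearest with 29.2, 29.96 and 32.9 CPM, at least 5.46 times the background. Of 12 B lymphocyte genes only BTK, a kinase also known from myeloid cells, was called, with 42.4, 42.5 and 43.8 CPM. PAX5 had 0.739, 0.921 and 1.75 CPM and CD3E 0, 0.127 and 0.183. The medians of the T and B lists were 0.0127 and 0.0110 CPM per kb. None of 16 genes of other tissues was called, and their summed level was 1.09 to 1.53 CPM. These calls move with the background. Taken without the 10 highest receptor genes it gave 3 of 12 T genes, 2 of 12 B genes and 4 of 16 granulocyte and monocyte genes, and 0 of 16 genes of other tissues. A multiple of 5 gave 1 T gene, 1 B gene and 2 granulocyte and monocyte genes, and a multiple of 20 none of these. Nested in same-strand genes, and so uncertain, are CD79B, INS, NEUROD1, GP1BB and ITGB3, which were at or near 0. The summed level of the 12 T genes was 38.6 to 42.4 CPM, most of it RAG1, and that of the 12 B genes 53.1 to 54.5 CPM, most of it BTK. How these levels bear on the label lymphoblast was not tested.

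**Figure D3:**
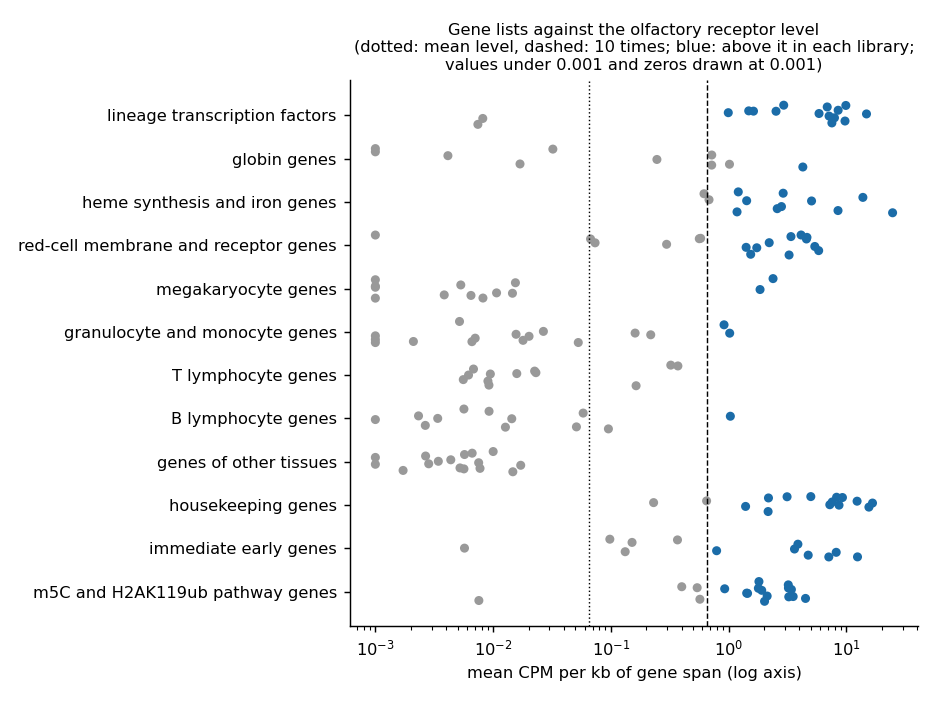
Mean CPM per kb of gene span (log axis) of the members of 12 gene lists, 1 point per gene, blue where the gene passed 10 times the olfactory receptor level in each library. The lineage factors, haem genes and housekeeping genes lie mostly right of the dashed line, the lymphocyte and other-tissue genes left of it.

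Of 12 nuclear lncRNAs 9 were above background, against 4.77% of lncRNA genes, with a median density of 1.56 CPM per kb. The list was chosen for its nuclear RNAs. After MALAT1 and NEAT1, PVT1 had 665, 634 and 646 CPM and FTX, a regulator of X inactivation, 405, 411 and 411. KCNQ1OT1, the antisense RNA of an imprinted cluster, had 281, 277 and 282 CPM, DLEU2 247, 267 and 259.9, JPX 187, 205 and 212 and FIRRE 100.56, 109.6 and 104. TUG1 had 38.3, 40.7 and 39.3, and MIAT was the least even with 3.82, 1.09 and 1.84, which was under the background in replicates 2 and 3. CDKN2B-AS1 had 0.170, 0.0392 and 0.122 CPM, and OIP5-AS1, nested in a same-strand gene, was at 0. Of 12 snoRNA host genes and NORAD 10 were called, against 14.3% of genes of any class, with a median of 3.62 CPM per kb. The spans of 2 of the 12 are mostly shared with other genes, and 1 was at 0. ZFAS1 had 131, 123 and 126 CPM, GAS5 108, 97.6 and 98.4 and SNHG1 87.8, 79.1 and 82.5. NORAD, known as a cytoplasmic lncRNA, had 26.7, 21.96 and 25.1 CPM.

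Genes whose mRNAs fill the cytoplasm took a small share. All 86 ribosomal protein genes held 0.246% ± 0.00591 of gene counts, and MALAT1 alone had 6.86 ± 0.229 times their sum. Of these 86, 71 were above background, against 36.0% of protein-coding genes, with a median of 3.93 CPM per kb of span. The span of 6 of the 86 is mostly shared with other genes, for example RPL17 and RPL26, which were at 0 and were not called. RPL13A was the highest with 87.3, 80.3 and 84.4 CPM and RPS3 the next with 88.0, 74.9 and 77.5. Of 15 housekeeping genes 13 were called, PGK1, shared over 63.9% of its span, not being one of them, with a median of 7.24 CPM per kb: ENO1 had 172, 167 and 167 CPM, HSP90AB1 135, 124 and 127, ACTB 83.3, 81.7 and 78.6 and GAPDH 30.6, 26.6 and 26.7. The 37 genes of the mitochondrial genome held 0.0229% ± 0.000893 of gene counts, so MALAT1 had 73.8 ± 3.46 times their sum. MT-CO1, a cytochrome oxidase subunit, was the highest with 60.9, 53.1 and 55.7 CPM, and the ribosomal RNA MT-RNR2 had 13.0, 7.39 and 7.32. The 37 include 2 ribosomal RNA genes, and ribosomal RNA was depleted before the libraries were made. Reads that align to several places were set aside, and their part in the low ribosomal protein and mitochondrial shares was not tested.

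Replication-dependent histone genes, whose mRNAs have no poly(A) tail, held 0.0894% ± 0.00417. Of 65, 40 were above background, against 36.0% of protein-coding genes, and 5 at 0, with a median of 3.36 CPM per kb. Without the 10 highest receptor genes in the background, 53 were. The spans of H1-6, H2AC17, H2AC7 and H3C4 are mostly shared with other genes. H1-2 had 53.2, 55.1 and 55.6 CPM and H2AC11 52.8, 55.8 and 53.0, whereas H1-4 with 52.0, 39.3 and 39.97, H2BC8 with 24.0, 17.6 and 17.3 and H2BC17 with 18.7, 14.2 and 14.8 were highest in replicate 1. Histone genes are a family of near copies, so their split is uncertain. Of 12 immediate early genes 7 were called, against the same 36.0%, with a median of 2.21 CPM per kb. MYC had 55.7, 54.1 and 50.3 CPM, ATF3 45.7, 42.7 and 43.2, IER2 40.3, 35.7 and 34.7, JUND 26.8, 22.2 and 22.97 and EGR1 18.6, 16.5 and 19.3. FOS, with 1.32, 1.11 and 1.33, and FOSB, with 1.11, 0.823 and 1.33, were not.

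The study concerns 5-methylcytosine (m5C) in caRNA: NSUN2 writes it, TET2 oxidises it, and MBD6 reads it and is bridged by ASXL1 to the complex of the deubiquitinase BAP1, which acts on ubiquitinated histone H2A. Of 18 genes of these pathways 14 were above background, against 36.0% of protein-coding genes, with a median of 1.86 CPM per kb of span against 0.127 over all of them. TET3 had 223, 221 and 225 CPM, TET1 194, 197 and 192 and TET2 (chr4:105145875-105279816, plus strand) 122, 124 and 126, and their densities were 1.81 ± 0.0164, 1.45 ± 0.0185 and 0.926 ± 0.0173 CPM per kb of span, in that order without overlap between libraries. NSUN2 had 116, 125 and 121 CPM and TRDMT1, the tRNA methyltransferase, 35.8, 34.9 and 34.3. The writers and erasers listed were thus counted in every library at levels that differed little between libraries. MBD6 (chr12:57520710-57530148, plus strand) had 44.4, 43.6 and 39.4 CPM over a 9.44 kb span and MBD5 189, 201 and 205 over 496 kb. MBD6 was the denser with 4.50 ± 0.284 against 0.400 ± 0.0161 CPM per kb, and MBD5 had the higher CPM. The median density of protein-coding genes was 1.03 CPM per kb from 5 to 20 kb and 0.0324 from 200 to 500 kb. Neither scale therefore ranks MBD6 and MBD5 free of their lengths. BAP1 had 30.3, 28.8 and 27.7 CPM, ASXL1 266, 261 and 260.5 and ASXL2 307, 308 and 308. Of the E3 ligases for the same mark, RNF2 had 79.2, 82.7 and 82.0 CPM and RING1 2.19, 2.23 and 2.81. PSPC1, the paraspeckle protein gene, had 203, 208 and 209 CPM, CXXC5 122, 128 and 125 and CXXC4 0.398, 0.196 and 0.0102, the last under the background.

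K562 is known to carry extra copies of the BCR-ABL1 fusion with neighbouring sequence of chromosomes 9 and 22, and to lack part of 9p21. ABL1 had 1161, 1159 and 1156 CPM, NUP214, a nucleoporin gene on the same arm, 1297, 1305 and 1307 and BCR 761, 687 and 699. Their densities of 6.64 ± 0.0127, 11.9 ± 0.0467 and 5.18 ± 0.288 CPM per kb of span lay above those of 98.2%, 99.5% and 97.1% of protein-coding genes. Replicate 1 was the highest for BCR. Of the other chromosome 9 genes on the list, FUBP3 had 2.79 ± 0.0372 and EXOSC2 3.97 ± 0.340. AIF1L, LAMC3 and PRDM12 had 0.0863 ± 0.0115, 0.0351 ± 0.00608 and 0.0167 ± 0.0130. FUBP3, PRDM12 and EXOSC2 lie before the start of ABL1, and LAMC3 and AIF1L between ABL1 and NUP214. High level thus did not extend to every gene between ABL1 and NUP214. Copy number was not measured, nor which of these genes the extra copies hold.

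On 9p21 the longest run without transcripts was found, taken as 8 or more neighbouring protein-coding genes, nested ones left out, with at most 3 counts each over the 3 libraries. Of the genes listed there, CDKN2B, KLHL9, DMRTA1, IFNA1 and IFNB1 were at 0 in every library, and CDKN2A, a cell-cycle inhibitor gene, had 0, 0 and 1 counts. From IFNB1 to DMRTA1 (chr9:21077104-22455740, 1.38 Mb), 20 of 21 protein-coding genes were at 0, and all 53 annotated genes together had 28, 13 and 15 counts. The rule for a run fixes in advance that its protein-coding genes, nested ones aside, are nearly empty. CDKN2B-AS1 had 12, 4 and 12 of these and MIR31HG 13, 6 and 0. MTAP, IFNA2 and IFNE, counted among the 20, are nested in same-strand genes and cannot be read. Many of the other genes are interferon genes, which resting cells do not express. On the side of the telomere FOCAD had 10208, 15591 and 15306 counts, 0.448 ± 0.0162 CPM per kb, and MLLT3 78, 88 and 67. The edges are not sharp: HACD4, next to the run on that side, had 0, 8 and 2 counts, and ELAVL2 on the other side 6, 8 and 8.

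**Figure D4:**
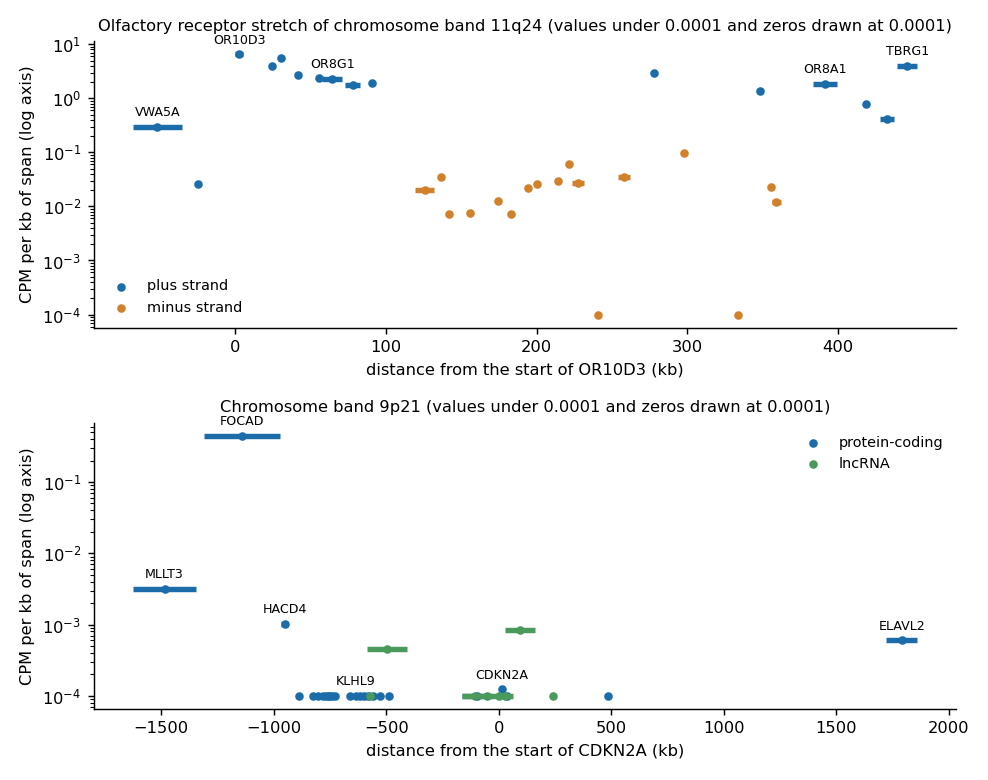
CPM per kb of gene span (log axis) against distance from the start of OR10D3 (top, by strand) and of CDKN2A (bottom, by class), 1 point per gene with a line for its span, mean of 3 libraries. The bottom panel holds protein-coding and lncRNA genes. In the top panel plus-strand genes of the stretch lie above 1 and minus-strand genes below 0.1. In the bottom panel FOCAD is at 0.448 and the highest gene drawn in the run is CDKN2B-AS1.

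Small structured RNAs differed more between libraries than other genes did. Among the classes with 10 or more genes counted at least 20 times in each library, the 30 small nuclear RNA genes had the highest median log2 ratio of replicate 1 to the mean of the others, 0.46, against 0.01 for 13528 protein-coding genes. SNORD3A, the U3 RNA of ribosome assembly, had 271, 128 and 131 CPM in replicates 1, 2 and 3. RNU1-27P (chr14:34546714-34546877, plus strand) had 99.2, 35.5 and 38.3 and RNU1-28P (chr14:34556226-34556389, minus strand) 77.3, 24.2 and 23.7, whereas RNU1-1 (chr1:16514122-16514285, minus strand) had 4.67, 2.37 and 2.08. In each of these replicate 1 was far above the other two libraries, which were close together. The densities of RNU1-27P and RNU1-28P were 352 ± 219 and 255 ± 188 CPM per kb. The U1 copies are shown because their 164 bases are identical in the reference (GENCODE v44), so that reads within them cannot be told apart and their split between copies is uncertain.
RNU1-1, RNU1-27P and RNU1-28P: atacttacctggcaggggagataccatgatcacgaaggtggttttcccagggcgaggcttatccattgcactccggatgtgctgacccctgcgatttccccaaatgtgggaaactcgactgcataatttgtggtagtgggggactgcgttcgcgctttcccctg
The U4 genes RNU4-1 (chr12:120293097-120293237, minus strand) and RNU4-2 (chr12:120291763-120291903, minus strand) differ at 4 of 141 bases, in capitals below, which lets a read that covers one be placed.
RNU4-1: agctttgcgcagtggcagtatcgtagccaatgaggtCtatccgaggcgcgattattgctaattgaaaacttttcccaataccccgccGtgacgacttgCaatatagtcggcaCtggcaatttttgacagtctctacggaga
RNU4-2: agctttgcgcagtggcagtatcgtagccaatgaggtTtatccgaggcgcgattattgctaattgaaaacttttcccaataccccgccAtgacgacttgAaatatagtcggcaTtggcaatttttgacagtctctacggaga
RNU4-2 had 23.8, 12.5 and 12.9 CPM and RNU4-1 15.3, 6.33 and 6.15, RNU4-2 being the higher in each library. RNU5A-1 had 3.61, 1.95 and 2.03. Of the 18 listed small RNAs 10 were at 0 in every library. Among these, 8 lie over nearly their whole span inside another gene of the same strand, for example RN7SK and RPPH1, so that the 0 does not measure their RNA, and the other two are RMRP and RN7SL1.

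The excess in replicate 1 went with GC content and shortness over genes in general, at a much smaller size. Over 11136 genes with a settled length and at least 100 counts in each library, the median log2 ratio of replicate 1 to the mean of replicates 2 and 3 was -0.06 for genes with 30% to 37% GC and 0.14 for 60% to 75% GC. It was 0.18 for genes under 1 kb and -0.06 for those over 500 kb. Spearman's rho across genes was 0.357 with GC and -0.206 with span, and GC and span themselves had -0.519. Of these genes 13 were over 2-fold higher in replicate 1 and 2 were over 2-fold lower. Replicate 1 also had the lowest depth. The part of any of these in the difference was not tested.

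**Figure D5:**
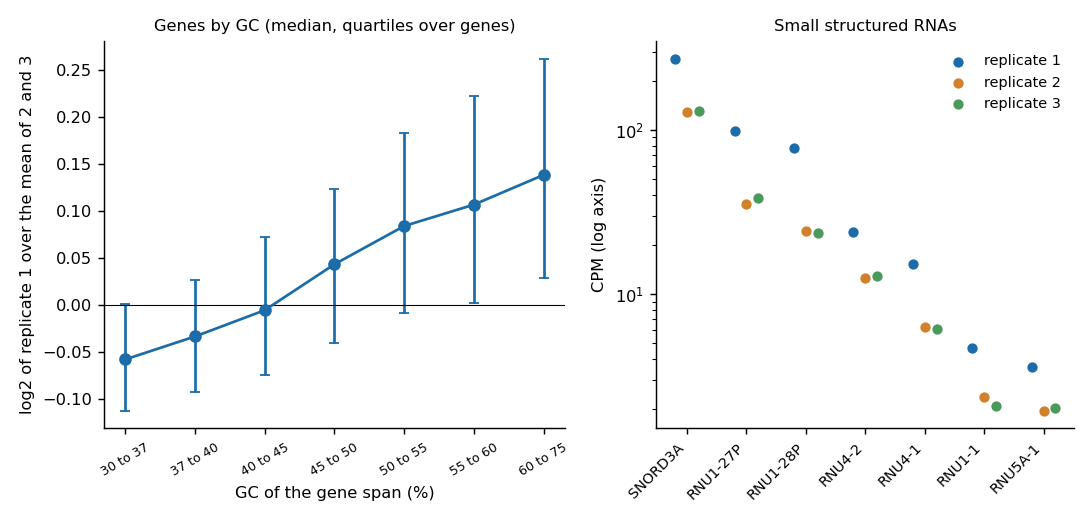
Left, log2 ratio of replicate 1 to the mean of replicates 2 and 3 by GC of the gene span, medians with quartiles over genes. Right, CPM (log axis) of 7 small structured RNAs per library. The medians rise from -0.06 to 0.14, and replicate 1 is the highest for all 7 RNAs.

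Apart from these classes the libraries were close. Over 20660 genes with at least 10 counts in each, Spearman's rho was 0.985 for replicates 1 and 2, 0.985 for 1 and 3 and 0.990 for 2 and 3. A chi-square of the counts, divided by its degrees of freedom, gave 11.2, 10.9 and 6.65 for the same pairs, so each pair differed by more than sampling noise and none was a repeat of another. The common biological coefficient of variation (edgeR) over 20875 genes was 0.148. Along the trend it was 0.386 at the 10th percentile of abundance, 0.129 at the median and 0.0378 at the 90th, so that a difference between libraries of a few percent is within the spread even for abundant genes.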

How the data were processed

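Chromatin-associated RNA was sequenced from 3 K562 libraries labelled TET2WT-shControl, and 1 count table per library was used. Per the study's methods and the submitters' processing notes, the authors made strand-specific libraries (SMARTer Stranded Total RNA-Seq Pico kit, after RiboMinus depletion), trimmed reads with Trimmomatic 0.39, aligned them with HISAT2 2.2.1 to hg38 with GENCODE annotation, and counted reads per gene. The processing notes name HTSeq 0.12.4, and the methods name it for annotated genes and featureCounts for caRNA, so which of them made these tables is not settled. The deposited values are raw read counts per gene, not normalized. No source used here states the feature type or the strand setting, which were tested on the counts of nested genes. Spike-in RNA is named in the methods, and no spike-in line was found in these tables.

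Only lines of named genes entered the totals, so that 70.7% to 71.6% of records stayed. Counts were scaled to CPM by gene counts. Gene span, exon length and class came from GENCODE 44 on GRCh38, which matched 99.1% of gene identifiers without their version. A length was settled where the versioned identifier was the same or the span lay within 1.25 times that of RefSeq, and ranks by density and by length were limited to these genes after the data were seen. The genes named are the 4 markers of the line, the highest by CPM, by density and by length, the lncRNA genes with the highest CPM, and members of gene lists. The members and lists were chosen with earlier results of these data known. No contrast was made and no test was run. The spread was estimated with edgeR 4.0.16 in R 4.3.3, TMM factors being 0.997 to 1.00, and DESeq2 1.42.0 size factors served as an alternative. The scripts were tested on simulated data. Alternatives were other totals, other count minimums, other multiples of the background, overlapping genes left out and each library left out. The values of a few members of these lists are not reported here.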

Additional observations from a re-analysis of the deposited data

Results flagged for a closer look

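Signal in lines that none of the results above use was found in each library. Read records outside annotated genes made up 13.1% of all records in the lowest library and 13.3% in the highest. Records aligned to several places made up 10.1% in the lowest and 10.9% in the highest. The tables do not say where either kind lies, so repeats and unannotated transcripts were not analysed here.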

How the results depend on the processing

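No paired analysis was possible because no comparison between groups was made and no test was run. Of 71 alternatives over 12 results, 48 left the value within the spread between libraries or, for the count of genes above background, which has no such spread, within 1.5 times it, and 23 moved it further. With all read records as the total, the share of protein-coding genes was 62.7%, of lncRNA genes 7.24%, of MALAT1 1.20%, of the 10 highest genes 3.00% and of the mitochondrial genome 0.0163%. With same-strand overlapping genes left out, these were 90.9% for protein-coding, 6.48% for lncRNA, 2.64% for the 10 highest and 0.0332% for mitochondrial genes. With the 10 highest genes left out of the total, they were 89.8%, 8.18% and 0.0239% for protein-coding, lncRNA and mitochondrial genes. MALAT1 overlaps another gene and is the highest, so these settings give it no value. The count above background, 8236, was 10380 at a multiple of 5, 10198 per kb of exon and 6011 without overlapping genes. A multiple of 20 left 5128 genes above background, and the background without the 10 highest receptor genes left 14142. The median density was 0.127 CPM per kb with no minimum, 1.03 with at least 100 counts, 0.762 without overlapping genes and 0.708 over settled lengths, the last chosen after seeing the data like the receptor setting. The common coefficient of variation was 0.360 with no minimum. Leaving out 1 library gave 0.578 to 0.627 for the median density, where more genes pass the minimum, and 0.122 to 0.163 for the coefficient of variation. The lowest of both came without replicate 1. The densities of GATA1, TAL1, HBG1 and MALAT1 moved by less than their spread in the alternatives run. Depth limits genes near 3 counts, and nested genes cannot be read at any depth.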

Other observations

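The share of protein-coding genes above background differed between chromosomes. It was 26.4% of 717 genes on chromosome X, and between 31.1% (chromosome 21, 167 genes) and 45.3% (chromosome 16, 631 genes) on the autosomes. These shares cover fewer genes than the 19416 protein-coding genes above, so they cannot be set beside the 36.0% found there. Chromosome 1 held 11.3% of the gene counts. Among runs of protein-coding genes with at most 3 counts each, the one with the most genes was the keratin cluster of chromosome 17, where 41 neighbouring genes from KRT12 to KRT33B were empty over 0.509 Mb. An olfactory receptor cluster of chromosome 11, from OR8I2 to OR5AK2, followed with 29 genes over 0.897 Mb, and the run at KRTAP13-1 on chromosome 21 with 27 genes. These are families of skin, hair and nose, and they mark where the tables hold next to no counts.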
